A study of Mus musculus with 28 samples.

Results

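Vehicle livers and vehicle muscles of obese mice were compared across all genes. The members were chosen by group: the 6 livers and the 6 muscles of the vehicle arm at 40 d, 12 of the 28 samples of the series. All came from male Lepob/Lepob C57BL/6J mice, which lack the satiety hormone leptin through an inherited stop in the coding sequence of Lep, and so no lean or leptin-sufficient animal enters the comparison. The mice started the AMLN diet at 4 weeks of age, with 40% of calories from fat, 20% of calories from fructose and 2% cholesterol by weight, and ate it for 20 weeks to model non-alcoholic steatohepatitis. They stayed on it while they were injected into the peritoneum each day for 40 d with solvent, the same volume that carried acetylsalicylate and trimetazidine in the treated arm, which is not part of the comparison. A vehicle liver and a vehicle muscle taken 24 h after injection, with 1 library of each, were used to look at the same differences in a table where both tissues share 1 scale. The labels do not say which muscle was taken, and they do not state whether a liver and a muscle with the same number came from 1 animal.

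Liver parenchyma is made up mainly of hepatocytes, which secrete most plasma proteins, convert ammonia to urea, make bile acids, release glucose between meals and turn surplus carbohydrate into fat. Skeletal muscle fibres contract through actin and myosin filaments, are switched on by calcium from the sarcoplasmic reticulum, and buffer ATP with creatine phosphate and glycogen. Both tissues burn fuel in mitochondria, but for many steps of metabolism the genome holds separate genes that encode a liver or widespread form and a muscle form of the same protein.

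Liver libraries held 17.2 to 18.8 M reads on genes and muscle libraries 16.3 to 19.9 M. The share of reads on mitochondrial genes was 4.37% to 6.54% per liver and 7.15% to 10.5% per muscle. The defining markers matched the tissue labels in all 12 libraries. The summed level of 6 hepatocyte markers was 34399 to 40165 FPKM in the livers and 8.75 to 153 FPKM in the muscles, and that of 6 muscle fibre markers was 0.577 to 1.21 FPKM in the livers and 31462 to 57217 FPKM in the muscles. FPKM counts fragments per length of exon and per library size, so it can be compared between genes. Muscle 3_2 stood apart with hepatocyte transcripts, muscles 3_2 and 6_1 with slow-fibre transcripts and muscle 2_3 with fat-cell and Schwann cell transcripts. Their values are given with the results they touch. In whole tissue, fewer cells of a type and less RNA per cell cannot be told apart.

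A gene was called when its mean log2(FPKM + 1) differed between the tissues by more than 2-fold beyond the spread between libraries, by limma's treat test with a Benjamini-Hochberg adjusted p under 0.05. Of 12117 genes tested, 3858 were called (31.8%), 2075 of them higher in liver (17.1%) and 1783 higher in muscle (14.7%). The lowest and highest values of the groups did not overlap for 8077 of the genes tested (66.7%) and for 3851 of those called. Among the calls, 74 genes higher in liver had 0 reads in all 6 muscles and 140 genes higher in muscle had 0 reads in all 6 livers. At the other end, 2785 genes (23%) had the whole 95% interval of their difference within 0.5 on the log2 scale. Of the calls, 53.8% were higher in liver with 1 set of size factors over the 12 libraries, against 46.2% on the authors' own scales and 46.6% on total reads. In TPM, in which each library sums to the same total, it was 39.8%. There the median of all genes moved by −0.36 on the log2 scale and 14314 genes reached the level for a test, and their parts in the split cannot be told apart.

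In the 24 h libraries the difference had the same sign for 3845 of the 3858 calls and the opposite sign for 12. It was also at least 2-fold for 3443 of them (89.2%), where 35.2% of all genes tested differed at least 2-fold at 24 h. These libraries give no estimate of error, since there is 1 of each tissue.

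**Figure D1:**
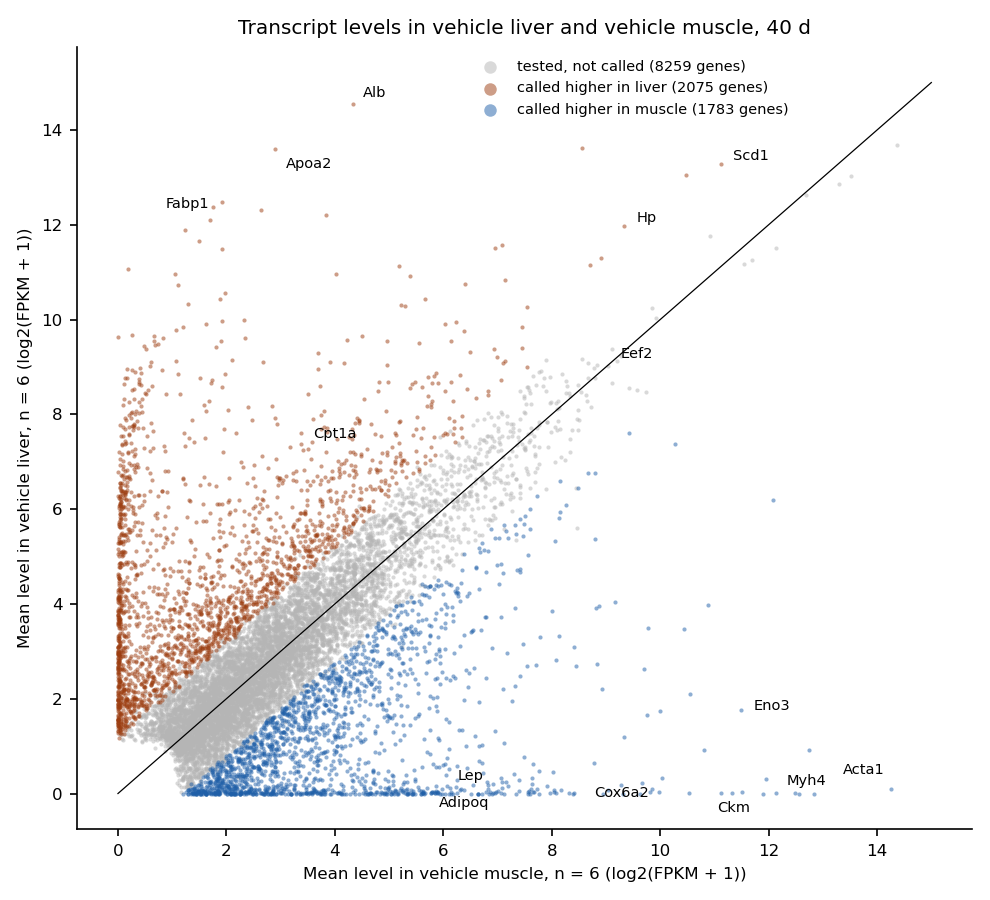
Each point is 1 of the 12117 genes tested, with its mean level in the 6 vehicle muscles on the x axis and in the 6 vehicle livers on the y axis, both as log2(FPKM + 1). The 2075 genes called higher in liver lie above the line of equal levels and the 1783 called higher in muscle lie below it, with Alb and Acta1 at the ends of the clouds.

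Plasma proteins had the largest median difference of the lists of liver functions on the log2(FPKM + 1) scale. That scale understates the change of genes near 0. As a log2 fold without the added 1, the median was 9.92 for plasma proteins and 9.7 for bile acid synthesis and transport. It was 8.84 for the urea cycle and amino acid breakdown, 8.17 for drug metabolism and 7.0 for glucose production and fructose use. All 41 members of a list of plasma proteins made by the liver were higher in liver. Their median difference was 8.18 on the log2 scale, where the median over all genes tested was 0.03. The list was drawn up for proteins of liver, so its direction is no independent finding. The same holds for the lists below that name functions or regulators of 1 tissue. Albumin, the main carrier protein of blood, was the most abundant transcript of the list: Alb was at 20570, 24063 and 26886 FPKM in the lowest, median and highest liver and at 1.74, 5.38 and 89.2 FPKM in the muscles. Its difference was 11.52 ± 0.67 (log2, SE, n = 6 and 6, limma treat adjusted p = 1.68e-09), and every liver lay far above every muscle. The transport proteins of the lipoproteins followed, with Apoa2 at 10413 to 14781 FPKM in liver and 0.2003 to 30.8 in muscle, a difference of 11.78 ± 0.62. Apoa1 differed by 10.84, Apoc3 by 10.14 and Apoa4 by 10.89. Of the exonic bases of Apoa4, 69.8% are shared with a gene on the other strand, and the sources do not say whether counting used strand.

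Other carriers and inhibitors of plasma behaved alike. Ttr, the carrier of thyroid hormone and retinol-binding protein, was at 4955 to 5762 FPKM in the livers and at 0 to 12.1 FPKM in the muscles. Hpx, which binds haem, differed by 10.92, Gc, the vitamin D carrier, by 10.82, Ahsg by 10.28 and Ambp by 10.07. In each of these the highest muscle value belonged to muscle 3_2. Haptoglobin, which binds free haemoglobin, had the smallest difference of the list: Hp was at 3672 to 4515 FPKM in liver and still at 292 to 944 FPKM in muscle, 2.76 ± 0.26 apart (limma treat adjusted p = 2.18e-05). Complement C3 was also well above 0 in muscle, at 43.4 to 84.4 FPKM against 849 to 1255 in liver. Hp and C3 are made by fat cells too, and fat-cell markers were high in the muscles. Their part in these levels was not tested.

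The lists of nitrogen disposal, bile acids and drug metabolism lay wholly on the liver side. All 25 genes of the urea cycle and amino acid breakdown were higher in liver, with a median difference of 6.15. Arg1, the arginase that releases urea, was at 666, 828 and 904 FPKM in the lowest, median and highest liver and at 0 to 1.77 FPKM in the muscles, 9.07 ± 0.20 apart (limma treat adjusted p = 1.85e-14). Cps1, which fixes ammonia in the mitochondria, differed by 8.07, Ass1, which adds aspartate to citrulline, by 8.35, and Otc by 6.15. Mat1a, which makes S-adenosylmethionine in liver, was at 924 FPKM in liver, while Gnmt, which uses it up, was at 568. In muscle they were at 1.3 and 3.29 FPKM.

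Of 17 genes for bile acid synthesis and transport, 15 were tested and all 15 were higher in liver. Cyp7a1, the rate-limiting enzyme of the classical pathway, was at 19.9, 36 and 64.2 FPKM in the lowest, median and highest liver and had 1 read in all 6 muscles together. Slc10a1, which takes bile acids up from blood, was at 97.8 ± 16.8 FPKM in liver (SD, n = 6) and 0.16 ± 0.2004 in muscle. Abcb11, the bile salt export pump, was at 62.9 FPKM in liver. Cyp27a1, which oxidizes the cholesterol side chain, and Abcb4, which exports phosphatidylcholine, were the members with clear levels in muscle, 32.2 and 14.5 FPKM, against 159 and 39.9 FPKM in liver. Abcb4 did not pass on the authors' own scales (1.16), on total reads (1.18) or in TPM (1.06). All 25 genes of drug metabolism were higher in liver, with a median difference of 6.43, led by Cyp2e1, which oxidizes ethanol and small solvents, at 1456 to 2204 FPKM. Cyp3a11 differed by 9.11 ± 0.24.

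Most genes for glucose production and fructose use were higher in liver. Of 14 genes, 13 were tested and 11 were higher in liver, with a median difference of 5.26. G6pc, which frees glucose from glucose 6-phosphate, was at 41.6 to 87.8 FPKM in liver and 0 to 0.95 in muscle. Khk, which phosphorylates the fructose that the diet was rich in, was at 345 ± 71.2 FPKM in liver and 10.3 ± 2.15 in muscle. Pck1, which makes phosphoenolpyruvate and also serves glycerol synthesis in fat cells, was at 260.1 to 517 FPKM in liver and 13.6 to 55.9 in muscle. The glucose 6-phosphate carrier Slc37a4 and the mitochondrial Pck2 were not called, at 0.31 and −0.04.

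The transcription factors that define hepatocytes were detected in liver at modest levels. Of 20 on the list, 19 were tested and 16 were higher in liver. Hnf4a, a nuclear receptor that drives many hepatocyte genes, was at 85.5, 102 and 122 FPKM in the lowest, median and highest liver and at 0 to 0.694 in muscle, 6.54 ± 0.13 apart (limma treat adjusted p = 8.53e-15). Foxa2, a pioneer factor, was at 12.7 FPKM in liver and had 0 reads in all 6 muscles, so it was at least 1164-fold higher against a floor of 3 reads over the group. Nr1h4, the bile acid receptor, differed by 5.58 and Nr1i2, the pregnane X receptor, by 5.4. Cebpa, which fat cells also use, was at 187 FPKM in liver and 42.6 in muscle. Cebpb (0.14), Xbp1 (0.83) and Esr1 (−0.43) were not called.

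The contractile apparatus gave the largest differences on the muscle side. Of 38 sarcomere genes, 37 were tested and 36 were higher in muscle, with a median difference of −7.28. This scale understates the change of genes near 0, and with the 8 members that had no liver reads set to a floor of 3 reads and no pseudocount the median log2 fold was −13.86. Acta1, the actin of the thin filament, had the largest difference of all genes on the log2(FPKM + 1) scale. It was at 13537, 18522 and 27122 FPKM in the lowest, median and highest muscle and at 0 to 0.146 FPKM in the livers, −14.12 ± 0.15 (log2, liver minus muscle, limma treat adjusted p = 6.41e-18). Tnnt3, the troponin T of fast fibres, was at 5573 to 10256 FPKM in muscle and had 0 reads in all livers. Myh4, the myosin heavy chain of the fastest fibres, was even across muscles, at 4050, 4396 and 5269 FPKM. Mylpf, Tnni2, Actn3, Myl1 and Tcap, all parts of the fast sarcomere or its Z-disc, were among the 12 largest differences as well.

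The myosin heavy chains ranked by the speed of the fibres that carry them. Against 4487 FPKM for Myh4, Myh1 of the IIx fibres was at 634 ± 149 FPKM, Myh2 of the IIa fibres at 336 ± 124 and Myh7 of the slow fibres at 53.7 ± 50.4 (SD, n = 6). The ranges of these 4 genes did not overlap between neighbours in this order, except that the lowest Myh1 muscle (438 FPKM) lay below the highest Myh2 muscle (538 FPKM). Tnnc2, the troponin C of fast fibres, was listed at 0 to 0.807 FPKM in muscle and was not tested. A gene on the other strand shares 74% of its exonic bases, so this level is uncertain.

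All 24 tested genes of excitation and calcium release were higher in muscle, with a median difference of −5.97, or −11.99 as a log2 fold with 7 members at the floor. Atp2a1, the calcium pump of fast fibres, was at 4868 to 6709 FPKM and Pvalb, a calcium buffer, at 5207 to 8048 FPKM. Pvalb had 0 reads in all livers. Casq1, which stores calcium in the sarcoplasmic reticulum, was at 924 ± 142 FPKM, and Ryr1, the release channel, at 116 ± 4.38 FPKM. Cacna1s, the voltage sensor, was at 98.3 FPKM with 0 reads in liver.

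Of 21 tested genes for phosphagen, glycogen and glycolysis, 18 were higher in muscle, with a median difference of −5.84. Ckm, the creatine kinase of muscle, was at 2677, 3694 and 5291 FPKM in the lowest, median and highest muscle and had 0 reads in all livers, at least 376136-fold higher against the floor of 3 reads over the livers. Slc2a4, the insulin-sensitive glucose transporter, was at 163 to 206 FPKM in muscle and 0.46 to 1.06 in liver. Ldha (−1.23), Pgk1 (−0.70) and Gapdh (−2.55) were not called, though Ldha passed on the authors' own scales (−1.48). Gapdh, a glycolytic enzyme of every cell, was listed at only 0.883 to 38.6 FPKM in liver and 4.1 to 86.5 in muscle, and glycogen phosphorylase of muscle, Pygm, at 0.0317 to 0.13 FPKM in muscle, so these listed levels are uncertain. The genome holds many processed copies of Gapdh, and the sources do not say how reads were shared among copies. Liver 2_4 held the highest Gapdh value, and without it the difference was −3.24 and passed the test (limma treat adjusted p = 0.0103).

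The regulators of muscle identity were low beside the genes they are known for. Of 18, 17 were tested and 16 were higher in muscle, with a median difference of −4.36. Myf6, the myogenic factor of mature fibres, was at 47.7, 60.6 and 80.2 FPKM in the lowest, median and highest muscle, Myod1 at 7.84 to 26.2 and Myog at 4.88 to 7.59. All 3 had 0 reads in every liver. Mef2c differed by −4.36 ± 0.07, while Mef2a (−1.18) was not called but passed without liver 2_1 (−1.21). Mstn, which restrains muscle growth, was at 25.6 ± 3.76 FPKM in muscle with 0 reads in liver.

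Promoters of leading genes of each tissue are shown. These genes are among the 12 largest differences each way, so their shared direction is how they were chosen. The windows are the 250 bases before the annotated start, 5′ to 3′ on the gene's strand, from RefSeq on GRCm38.p6. Capitals mark matches to TATAAA on the sense strand, to GTTAAT (a core motif of HNF1 sites), to CAGCTG (an E-box that MyoD binds, the same on both strands), and to the CArG box of SRF and the MEF2 site by name. All but TATAAA were searched on both strands, and a MEF2 site or CArG box can share letters with TATAAA.
Alb at chr5:90460620-90460869, plus strand: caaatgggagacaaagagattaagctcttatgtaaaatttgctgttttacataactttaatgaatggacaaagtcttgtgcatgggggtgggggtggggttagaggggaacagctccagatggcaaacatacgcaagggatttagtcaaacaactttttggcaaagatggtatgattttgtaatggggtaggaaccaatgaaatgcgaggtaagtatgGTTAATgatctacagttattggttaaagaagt
Fabp1 at chr6:71199629-71199878, plus strand: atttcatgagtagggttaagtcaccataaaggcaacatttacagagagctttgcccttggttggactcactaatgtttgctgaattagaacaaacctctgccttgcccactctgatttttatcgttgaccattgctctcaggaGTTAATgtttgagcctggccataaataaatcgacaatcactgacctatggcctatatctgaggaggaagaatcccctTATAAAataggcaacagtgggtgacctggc
Acta1 at chr8:123894776-123895025, minus strand: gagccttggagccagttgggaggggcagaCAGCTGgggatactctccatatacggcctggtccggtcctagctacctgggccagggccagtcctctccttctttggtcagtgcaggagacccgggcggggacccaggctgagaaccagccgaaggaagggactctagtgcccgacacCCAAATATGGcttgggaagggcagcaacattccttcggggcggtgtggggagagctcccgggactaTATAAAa
Myh4 at chr11:67237562-67237811, plus strand: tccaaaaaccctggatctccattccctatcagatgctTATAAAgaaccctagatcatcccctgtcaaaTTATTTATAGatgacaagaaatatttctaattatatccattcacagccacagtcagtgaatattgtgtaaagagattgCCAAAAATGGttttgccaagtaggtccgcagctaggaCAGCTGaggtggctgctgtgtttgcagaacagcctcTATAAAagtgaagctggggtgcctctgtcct
The windows of Alb and Fabp1 both hold GTTAAT, and those of Acta1 and Myh4 both hold CAGCTG and a CArG box. CAGCTG was in 13% of all 32851 RefSeq windows, in 16.4% of the 1729 windows of genes called higher in muscle and in 12.4% of the 1962 windows of genes called higher in liver. GTTAAT was in 6.43% of all windows, 8.1% of the liver windows and 4.22% of the muscle windows. A CArG box was in 1.47% of all windows, 1.53% of the liver windows and 1.97% of the muscle windows. Windows were found for 8 of the 12 genes with the largest differences in muscle and for 9 of the 12 in liver. CAGCTG was in a window of 7 of the 8, and GTTAAT in a window of 3 of the 9. Counted by windows, as for the shares above, these were 8 of 11 and 3 of 10. Some windows of Mb overlap and hold the same CAGCTG. A CArG box was in 2 of the 11 windows of these muscle genes, those of Acta1 and Myh4. It was in 1 of the 10 windows of these liver genes, that of Hpx. A match to these letters describes the window and does not show a bound site.

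Where liver and muscle use separate genes for the same step, both sides of the switch were seen for most steps of carbohydrate use. Of 38 pairs of a liver or widespread form and a muscle form, 20 had the liver form called higher in liver and the muscle form called higher in muscle. In 13 the muscle form alone was called and in 4 the liver form alone. No form was called higher in the other tissue. The muscle form exceeded the liver form in muscle in 36 pairs, and the liver form exceeded the muscle form in liver in 36. The pairs were listed because textbooks name them as tissue forms, so their direction is no independent finding.

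Glucose entry and storage showed the exchange at several steps. The transporter Slc2a2 was at 69.6 ± 6.19 FPKM in liver and 0.0416 in muscle, while Slc2a4 was at 0.703 and 178 ± 16.2. Hk2, the hexokinase of muscle, was at 3.05 FPKM in liver and 54.8 in muscle. Glycogen synthase was Gys2 in liver (82.5 FPKM) and Gys1 in muscle (104 FPKM). Lower glycolysis followed with Pgam1 and Pgam2, Eno1 and Eno3, and Pklr and Pkm. Aldoa, the aldolase of muscle, was at 72.5 FPKM in liver and 4312 in muscle. Of the exonic bases of Pklr, 22% lie under a gene on the other strand.

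The exchange reached parts that are not specific to fuel use. Cox6a2 and Cox8b, subunits of cytochrome oxidase found in muscle and heart, differed by −9.7 ± 0.18 and −9.03 ± 0.22, while their widespread partners Cox6a1 and Cox8a were higher in liver by 2.43 and 1.98. Of the translation machinery, the elongation factor Eef1a2 and the ribosomal protein Rpl3l were at 814 and 263 FPKM in muscle and 0.165 and 0.0598 in liver. Eef1a1 and Rpl3 were higher in liver by 2.38 and 1.49, though Rpl3 did not pass in TPM (1.12), and in muscle they stood at 479 and 44.4 FPKM, so the muscle form was the more abundant there in both pairs.

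In 14 pairs the liver or widespread form did not pass the test. Ckb was nearly level, at 7.66 FPKM in liver and 8.3 in muscle beside 3805 FPKM of Ckm, and Pfkl was at 9.62 and 6.98 beside 828 FPKM of Pfkm in muscle. Subunits of AMP-activated kinase, which senses low energy, were split in the same way: Prkag3 differed by −5.11, Prkab2 by −4.83 and Prkaa2 by −1.39, while Prkag1 (−0.29), Prkab1 (0.98) and Prkaa1 (−0.17) were not called. The acetyl-CoA carboxylases Acaca (0.84) and Acacb (−0.93) were the pair with neither form called. The muscle forms Pygm and Cpt1b were not tested. Cpt1b, the muscle form of the enzyme that admits fatty acids to mitochondria, was listed at 0.526 to 1.27 FPKM in muscle, and 81.4% of its exonic bases are shared with a read-through gene on the same strand, so its level is uncertain. Its liver form Cpt1a was at 165 ± 18.6 FPKM in liver and 9.36 ± 1.35 in muscle.

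**Figure D2:**
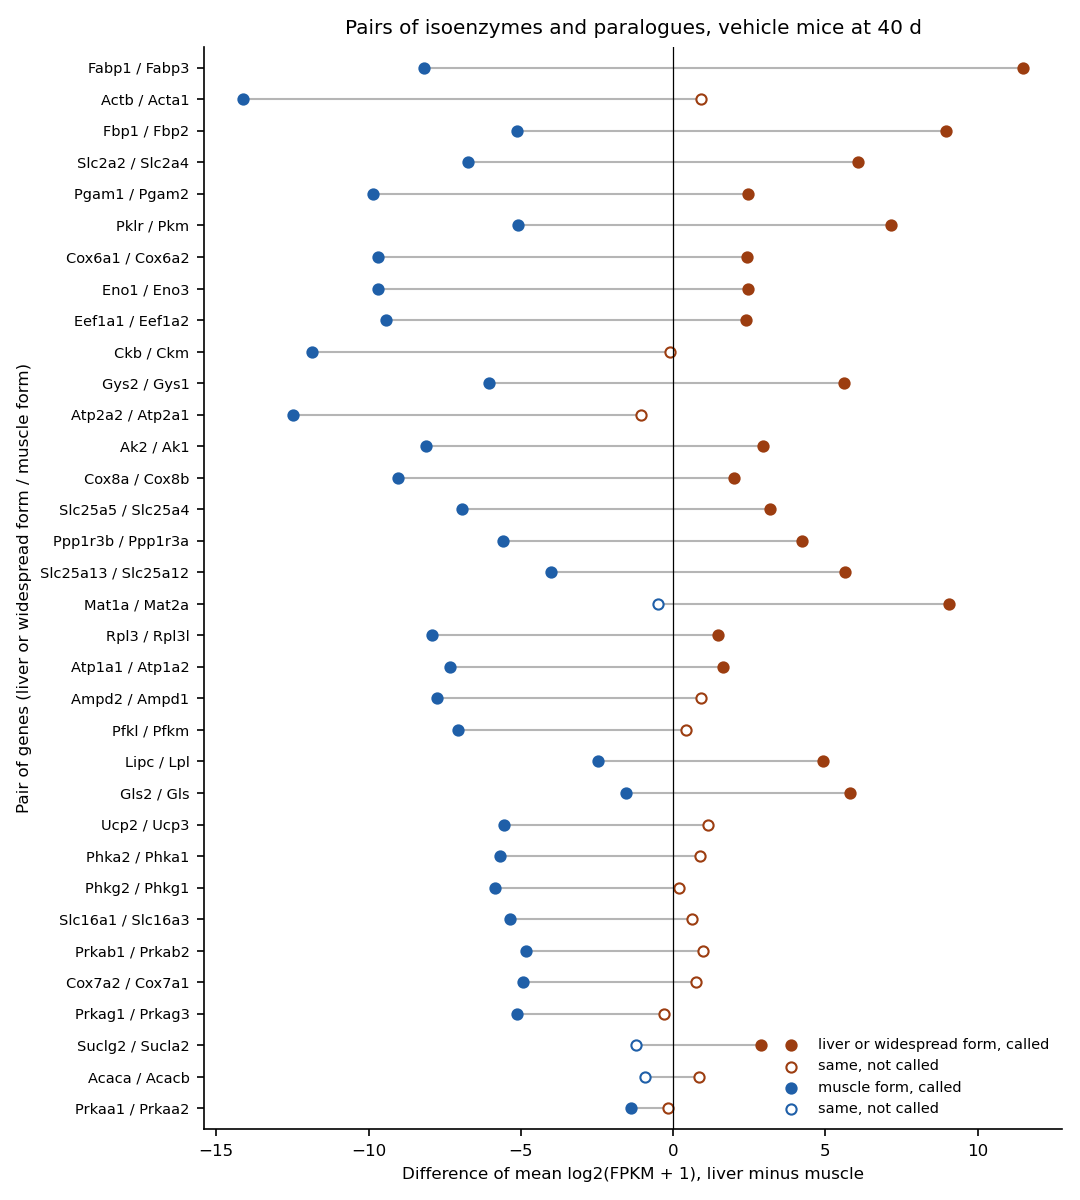
Each row is 1 of the 34 pairs drawn, out of 36 with both forms tested, and the x axis is the difference of mean log2(FPKM + 1), liver minus muscle, of the liver or widespread form (brown) and the muscle form (blue). Filled points were called by limma treat, and no filled brown point lies left of 0 and no filled blue point right of it.

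Few genes of the common machinery of mitochondria were called. On a list of nuclear genes for subunits of oxidative phosphorylation, Ndufs7 alone of 67 tested was called. It was at 50.6 ± 8.39 FPKM in liver and 177 ± 43.5 in muscle (−1.77 ± 0.15, limma treat adjusted p = 2.24e-04). The median difference was −0.35, and −0.89 at 24 h, and 58 of the 67 had a mean lower in liver. The list did not hold Cox6a1, Cox6a2, Cox8a and Cox8b, the paired subunits described above, all of them called. Cox7a1, called higher in muscle (−4.93), was not on it either. Atp5b, the catalytic subunit of ATP synthase, was at 378 and 685 FPKM, Cox4i1 at 435 and 442 FPKM. Of the 13 genes of the mitochondrial genome, mt-Co2 and mt-Atp6 were called higher in muscle. mt-Atp6 no longer passed when any of livers 2_1, 2_4, 2_5 and 6_1 or muscles 2_5, 3_2 and 6_1 was left out (−1.92 to −1.68), and mt-Co3 (−1.88) passed without liver 6_1 (−2.17) or muscle 3_2 (−2.1). mt-Co1, the most abundant of them, was at 10738 to 18239 FPKM in liver and 15930 to 25983 in muscle (−0.70, not called). mt-Co2, mt-Atp6 and mt-Co3 were listed far below it, at 108, 86.3 and 86.2 FPKM in liver. These genes have near-identical copies in the nuclear genome, so their listed levels are uncertain.

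The listed genes of the citric acid cycle leaned to muscle. Of 20 genes for pyruvate dehydrogenase and the cycle, 6 were higher in muscle and none in liver, where 14.7% of all genes tested were higher in muscle. Suclg2, a subunit of succinyl-CoA ligase in the cycle, was not among these 20. It was called higher in liver by 2.89, at 102 FPKM in liver and 13 in muscle. Idh3a, the catalytic subunit of the NAD-linked isocitrate dehydrogenase, was at 11, 12.1 and 13.9 FPKM in the lowest, median and highest liver and 91.6, 108 and 135 in the muscles (−3.05 ± 0.10, limma treat adjusted p = 3.19e-11). Ogdh differed by −1.64, Cs, the citrate synthase, by −1.63, and Pdha1 by −1.42. Pdk4, the kinase that shuts pyruvate dehydrogenase in fasting, was at 4.67 to 12.6 FPKM in liver. In muscle it was at 277, 48.8, 130.3, 103, 279 and 478 FPKM in muscles 2_1, 2_3, 2_4, 2_5, 3_2 and 6_1. The lowest of these belonged to muscle 2_3, which was highest in fat-cell transcripts, and the highest to muscle 6_1, which was lowest. The part of fat cells in these levels was not tested.

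Fatty acid oxidation was unequal between compartments. In mitochondria, 5 of 18 genes were higher in liver (Acads, Hadh, Echs1, Eci2 and Acaa2) and none in muscle, where 17.1% of all genes tested were higher in liver. The median difference of the 18 was 0.81. Cpt1a, which was called higher in liver by 4.0, was not among them. Acaa2, a mitochondrial 3-ketoacyl-CoA thiolase, the kind of enzyme that trimetazidine is known to inhibit, was at 674 ± 65.7 FPKM in liver and 173 ± 50.3 in muscle. Hadhb, the thiolase subunit of the trifunctional protein, was nearly level at 41.5 and 53.2 FPKM, with a 95% interval of the difference from −0.60 to −0.06. On the authors' own scales, Acads (1.09), Hadh (1.07), Echs1 (1.01) and Eci2 (1.3) did not pass, and Acaa2 (1.75) did. Acads also lost its call without liver 2_3 or 3_2 or muscle 2_1, 2_3 or 2_4 (1.28 to 1.32). In peroxisomes, which shorten very long chains, 15 of 17 were higher in liver with a median of 3.42. Acaa1b was at 1505 FPKM in liver and 2.91 in muscle, and Ehhadh at 285 and 4.24. Ppara, the receptor that controls many of these genes in liver, was at 25 to 31.7 FPKM in liver and 2.14 to 4.12 in muscle.

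Genes of ketone bodies, branched-chain amino acids and creatine fell on both sides. Of 6 genes of ketone bodies, 4 were higher in liver and 1 in muscle. Oxct1, which activates ketones for burning, was at 4.89 ± 0.635 FPKM in liver and 61.8 ± 8.86 in muscle (−3.41 ± 0.10, limma treat adjusted p = 9.83e-12). Of 17 genes of branched-chain amino acid breakdown, 4 were higher in liver and 2 in muscle, shares not far from the 17.1% and 14.7% of all genes tested. Bcat2, which removes the amino group, differed by −1.62, and Bckdk, the kinase that blocks the next step, by −2.74. Bckdhb, a subunit of the dehydrogenase that carries out that step, was higher in liver by 1.78. Gamt, which completes creatine synthesis, was at 169 FPKM in liver and 10.9 in muscle, while the creatine transporter Slc6a8 was at 4.97 and 22.5. Bbox1, which makes carnitine, differed by 5.42 ± 0.07.

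Regulators of mitochondrial content were low and mixed. Of 12, 4 were higher in muscle and Ppara in liver, where 14.7% and 17.1% of all genes tested were. Ppargc1a, the coactivator that promotes mitochondrial biogenesis, was at 0.913 to 1.71 FPKM in liver and 3.26 to 7.32 in muscle (−1.4 ± 0.14). Its call was lost without liver 2_3 or muscle 3_2 (both −1.37, limma treat adjusted p = 0.0512), and it was at 2.94 and 3.11 FPKM in the 24 h liver and muscle. Ppard differed by −1.6, and Esrra (−1.37) was not called, though it passed without liver 2_3 (−1.45) or muscle 2_1 (−1.49).

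**Figure D3:**
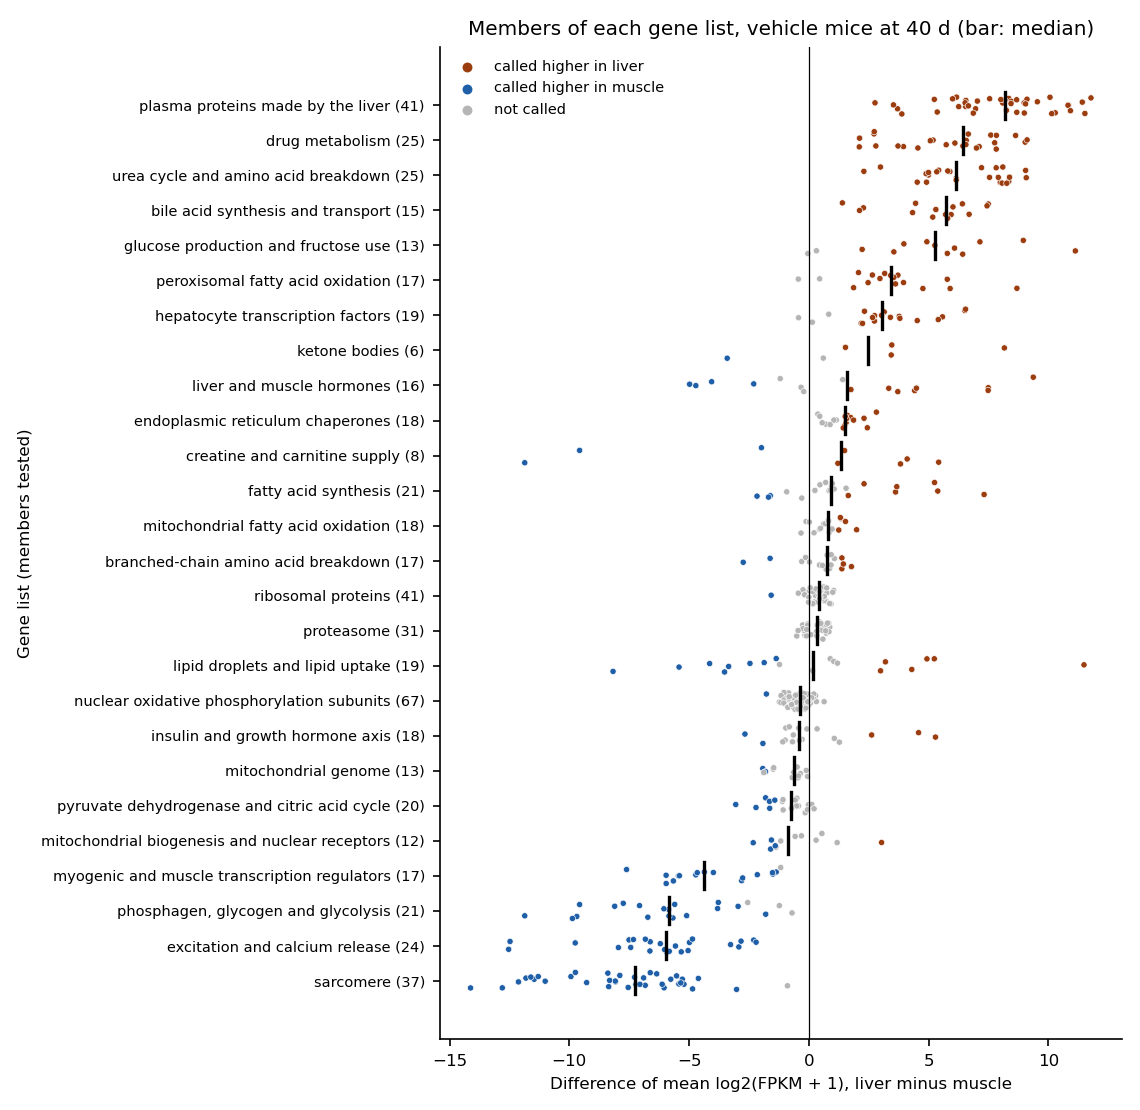
Each point is a tested member of a gene list, placed by its difference of mean log2(FPKM + 1), liver minus muscle, and coloured by its call, and black bars are list medians. The medians run from 8.18 for plasma proteins to −7.28 for the sarcomere, with ribosomal proteins, the proteasome and oxidative phosphorylation near 0.

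Transcripts of fat synthesis were not confined to liver. Of 21 genes, 7 were higher in liver, 3 in muscle and 11 were not called. Of all genes tested, 17.1% were higher in liver and 14.7% in muscle, and the muscle count was near that share. Scd1, the desaturase that makes oleate, was among the most abundant transcripts of both tissues: it was at 8399, 9373 and 13378 FPKM in the lowest, median and highest liver and 684, 2385 and 3556 FPKM in the muscles (2.3 ± 0.32, limma treat adjusted p = 0.00207), a call that was lost when no filter on low values was used (adjusted p = 0.129). At 24 h the levels were 5085 and 3931 FPKM, a difference of 0.37. Fasn, the fatty acid synthase, was at 95.6 to 228 FPKM in liver and 25 to 86.3 in muscle and was not called (1.06), nor was Acly (1.55, limma treat adjusted p = 0.0745). Acly passed with limma voom (adjusted p = 0.039) and with the label number as a block (adjusted p = 0.0309). The desaturases and elongases of longer chains were clearer: Fads2 was at 780.1 and 4.09 FPKM, Fads1 at 289 and 6.13, and Elovl5 at 493 and 11.9. Srebf1, which drives these genes in response to insulin, was at 63.4 to 119.6 FPKM in liver and 19.2 to 37.3 in muscle, and its call was lost on the authors' own scales (1.4). The 3 genes higher in muscle were Scd2, G6pdx and Pnpla3. Scd2 (−1.69 ± 0.25) did not pass without liver 2_3 (−1.57), liver 6_1 (−1.59), muscle 2_3 (−1.59) or muscle 2_4 (−1.64).

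Lipid droplet and uptake genes fell on both sides, 6 higher in liver and 8 in muscle of 19 tested. Over all genes tested, the shares were 17.1% and 14.7%. Plin2, the droplet coat of liver, was at 377 ± 74.2 FPKM in liver and 40.6 ± 9.56 in muscle. Plin1, the coat of fat cells, was at 0 to 0.11 and 19.5 to 84.2, and Plin4 at 12.3 and 132. Cidea, which enlarges droplets, was higher in liver, at 42.1 to 97.2 FPKM against 1.31 to 3.8, while Cidec was level at 172 ± 25.6 and 167 ± 73. The fatty acid binding proteins took opposite sides: Fabp1 differed by 11.48 ± 0.57 and Fabp3 by −8.18 ± 0.25. Lpl, which frees fatty acids from lipoproteins, was at 24 and 136 FPKM, and Cd36, which takes them up, at 117 to 162 and 263 to 357, not called (−1.23, limma treat adjusted p = 0.0989). Cd36 passed without liver 2_1 (−1.29) and on the authors' own scales (−1.47). The median of the list, 0.16, turned to −0.09 on those scales and was −0.99 at 24 h.

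Fat-cell markers were high in the muscles. All 6 tested markers of 7 were higher in muscle, and their summed level was 432 to 1362 FPKM in the muscles and 11.5 to 17.3 FPKM in the livers. Lep was at 140.0, 210.4, 164, 125, 86.9 and 43.9 FPKM in muscles 2_1, 2_3, 2_4, 2_5, 3_2 and 6_1 and at 0 to 0.123 FPKM in the livers. The mutant allele still gives a transcript, so these reads do not mean that hormone was made. Adipoq was at 0 in 4 of the 6 livers and at 64 to 245 FPKM in the muscles. Among muscles, 2_3 had the highest and 6_1 the lowest Adipoq, Lep, Cfd and Scd1, with Scd1 at 2580, 3556, 2593, 2190, 1725 and 684 FPKM in the same order of muscles. The part of fat cells in the muscle levels of Scd1, Scd2, G6pdx, Fasn, Srebf1, Lpl, Plin1, Plin4 and Cidec was not tested.

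Secreted hormones fell on both sides. Of 16 tested, 8 were higher in liver and 4 in muscle, where 17.1% and 14.7% of all genes tested were. Hamp, the regulator of iron, was at 453 to 1374 FPKM in liver and 0 to 1.004 in muscle. Fgf21, a fasting and stress hormone, was at 18.3, 21.4 and 42.1 FPKM in the lowest, median and highest liver and 0.0618 to 0.536 in the muscles. Lect2, a chemotactic protein secreted by liver, differed by 7.48. Mstn, Ostn, Fndc5 and Sparc were the 4 higher in muscle. Fndc5, the precursor of irisin, was at 14.9 to 25.9 FPKM in muscle and 0.101 to 0.239 in liver.

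Of 18 genes tested on the insulin and growth hormone axis, 5 were called, a share near that of all genes tested (31.8%): 3 were higher in liver (Igf1, Igfbp1 and Igfbp2) and 2 in muscle (Tbc1d1 and Tbc1d4, which hold back the glucose transporter). Igf1 was at 24.8 to 41.2 FPKM in liver and 1.72 to 7.43 in muscle. Tbc1d4 was at 0.555 ± 0.149 and 8.9 ± 1.08. The insulin receptor Insr was at 8.7 and 6.66 FPKM (0.34), Irs1 at 0.845 and 2.7 (−0.82) and Irs2 at 2.21 and 5.68 (−1.09), none of them called. Ptgs1, a target of aspirin, was at 5.64 and 2.62 FPKM and not called (0.87), and Ptgs2 stayed under 0.218 FPKM in all 12 libraries.

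Housekeeping lists were close to level. None of 31 proteasome genes was called, with a median of 0.34 that turned to −0.03 in TPM and was −0.21 at 24 h. The median of 41 listed ribosomal proteins was 0.43 and at 24 h −0.0028. Among them Rpl24 alone was called, at 0.649 and 3.95 FPKM, and 47% of its exonic bases are shared with a gene on the same strand. The list did not hold the pair Rpl3 (1.49) and Rpl3l (−7.92), which were called in opposite directions. The genes of at least 50 FPKM with the narrowest difference around 0 included the elongation factor Eef2, at 472 to 549 FPKM in liver and 456 to 639.9 in muscle, with a 95% interval from −0.25 to 0.22. Rps4x, Tma7, Vapa, Vcp and Ctsd were also among them. Endoplasmic reticulum chaperones, which fold secreted proteins, were an exception. There 11 of 18 were higher in liver and none in muscle, against 17.1% and 14.7% of all genes tested. Their median was 1.5, led by P4hb at 636 ± 40.6 and 89.2 ± 4.28 FPKM.

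Markers of other cells also differed between the tissues. These lists are short, and 17.1% of all genes tested were higher in liver and 14.7% in muscle. Kupffer cell markers, of the resident macrophages of liver, were higher in liver for 4 of 5, with Cd5l at 189 to 226 FPKM against 0 to 0.202. Of 5 markers of sinusoidal endothelium, 4 were higher in liver, and all 5 of continuous capillary endothelium were higher in muscle, with Pecam1 at 4.47 and 31.8 FPKM. Schwann cell markers were higher in muscle for all 4. Their summed level was 191 FPKM in muscle 2_3 and 70.2 to 87.8 FPKM in the other muscles. Biliary markers were higher in liver for 3 of 4 tested, with Spp1 at 206 ± 67 and 2.87 ± 1.4. Of 5 tested red cell markers, Alas2, the haem synthesis enzyme of red cell precursors, was higher in liver at 20.5 and 5.71 FPKM, though it did not pass in TPM (1.41), and the 4 globin genes were not called, with Hba-a1 at 121 to 589.6 FPKM in liver and 168 to 366 in muscle. The median of the list was 0.55, and −0.97 at 24 h. No marker of T or B cells reached the level for a test. Of the sparse classes, 1 of 4 stellate, 2 of 5 fibroblast, 2 of 3 smooth muscle and the 1 tested satellite cell marker were called, the stellate marker in liver and the others in muscle, while neither of the 2 tested neutrophil markers was.

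Muscles differed from each other in slow-fibre transcripts. Myh7 was at 26.3, 14.1, 39.4, 16.5, 143 and 83.2 FPKM in muscles 2_1, 2_3, 2_4, 2_5, 3_2 and 6_1, and Tnnt1, the slow troponin T, at 32, 22.7, 58.4, 24.7, 209 and 169 FPKM. Muscles 3_2 and 6_1 were the highest in both, as they were for Tnni1, Tnnc1, Myl2 and Sln. Myh4 did not follow this order, at 5269, 4078, 4050, 4174, 4731 and 4618 FPKM. In the 24 h muscle Myh7 was at 0.0663 FPKM, Tnnt1 at 0.547, Tnnc1 at 1.28 and Myl2 at 0.358, all below the lowest muscle at 40 d. Myh7, Tnni1, Myl2 and Sln were picked out after their values were seen. The log2 differences from liver of Myh7, Tnnt1, Tnnc1 and Myl2 were −5.28 ± 0.45, −5.35, −5.52 and −6.62 at 40 d and −0.09, −0.27, −0.14 and −0.44 at 24 h.

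**Figure D4:**
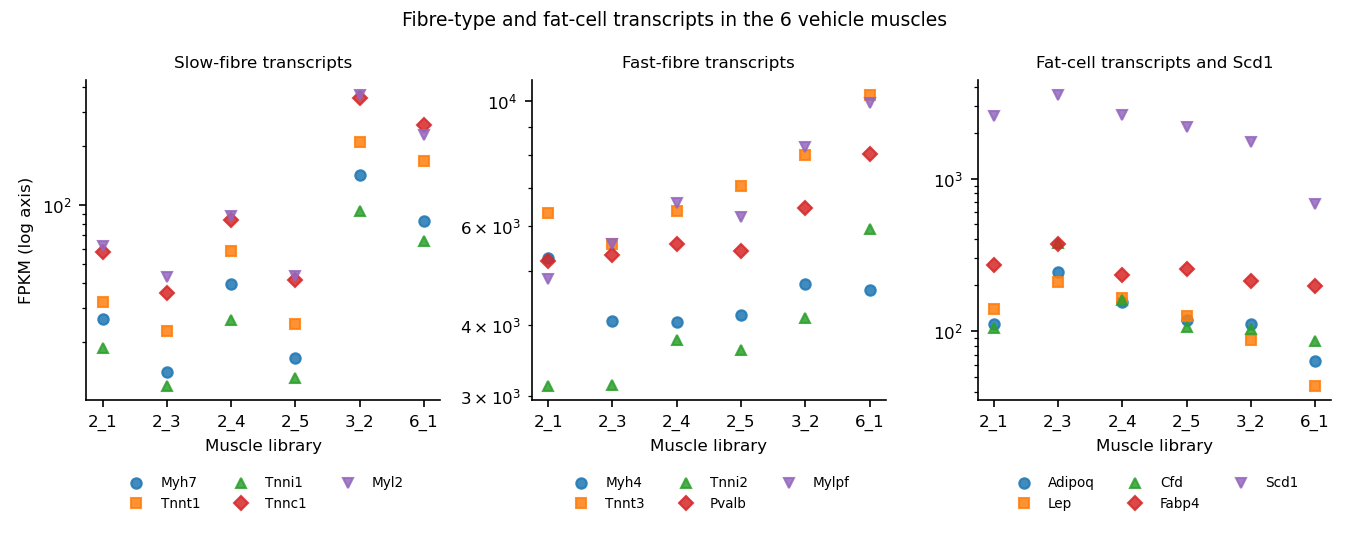
FPKM (log axis) of 5 slow-fibre transcripts, 5 fast-fibre transcripts and 5 transcripts of fat cells and Scd1 in each of the 6 vehicle muscles at 40 d. Muscles 3_2 and 6_1 are highest for all 5 slow-fibre transcripts, and muscle 2_3 is highest and 6_1 lowest for Adipoq, Lep, Cfd and Scd1.

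Liver transcripts were found in some muscle libraries at low levels. Of 40 liver genes with at least 500 FPKM in liver and under 1% of that in muscle, the median in muscle 3_2 was 0.43% of the liver level, against 0.0014% to 0.081% in the other 5 muscles. Alb was at 2.36, 8.39, 10.6, 2.18, 89.2 and 1.74 FPKM in muscles 2_1, 2_3, 2_4, 2_5, 3_2 and 6_1. On the scale of its own table, and set against the livers at 40 d, the 24 h muscle was like muscle 3_2 in its median, 0.424%. The 2 libraries differed in the spread of the genes: in the 24 h muscle Alb, Apoa4, Gstm3 and Mup3 were at 0.332%, 0.406%, 0.375% and 0.432% of the liver level at 40 d, and in muscle 3_2 at 0.371%, 0.012%, 0% and 4.95%. Gstm3, chosen after its values were seen, had 0 reads in muscle 3_2, against 559 to 1033 FPKM in the livers. Mup3 belongs to a family of near-identical genes, so its level is uncertain. In the other direction, 30 muscle genes reached medians of 0.0023% to 0.0074% in the 6 livers. The source of these reads was not tested. Without muscle 3_2 the difference of Alb was 12.22, and the number of genes called higher in liver stayed within 2044 to 2084 whichever library was left out.

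**Figure D5:**
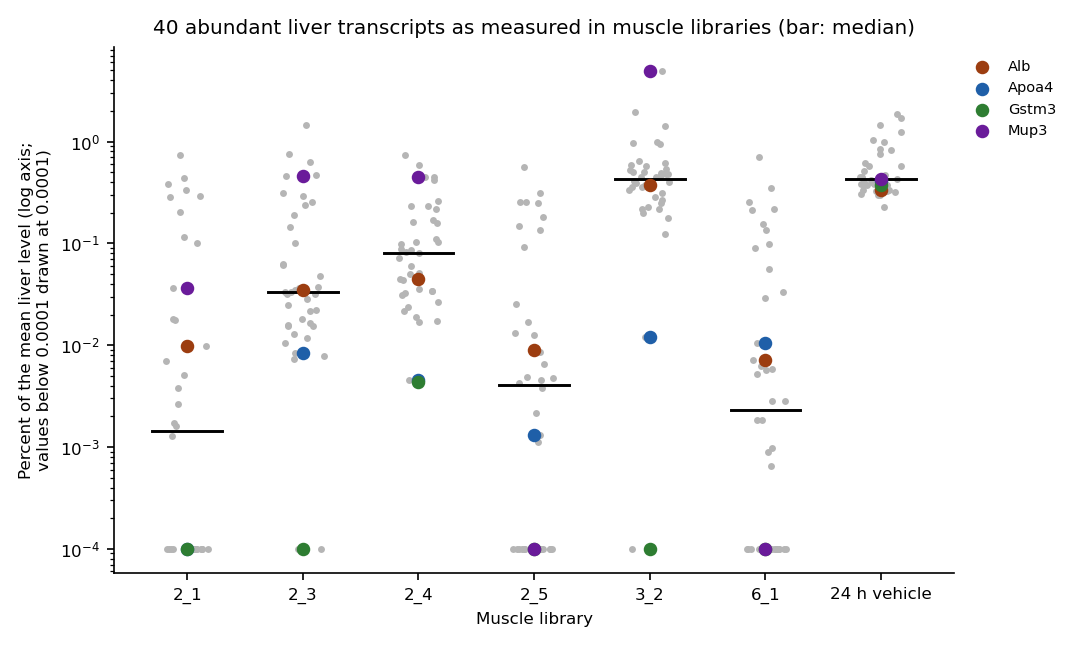
Each point is 1 of 40 abundant liver transcripts as measured in a muscle library, as a percent of its mean level in the 6 livers (log axis), with bars at the medians. Muscle 3_2 and the 24 h muscle have medians of 0.43% and 0.424%, and in muscle 3_2 Apoa4 and Gstm3 lie far below the bar and Mup3 above it.

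Between libraries of a tissue, the spread was somewhat larger in muscle than in liver. Among genes of at least 5 FPKM the median SD of log2(FPKM + 1) was 0.15 over 5974 genes in liver and 0.18 over 5856 in muscle, and of 4265 genes at that level in both tissues, 61.2% had the larger SD in muscle. Genes of the circadian clock were among the most variable in liver. Nr1d1, a repressor of the clock, was at 1.67, 7.41, 1.16, 11.9, 26.8 and 24.6 FPKM in the livers and at 9.96, 17.1, 11.5, 26.1, 51.7 and 45.4 FPKM in the muscles, each in the order of label numbers used above for the muscles. Numbers 2_1 and 2_4 were lowest and 3_2 and 6_1 highest in both tissues. Dbp, another clock output, was also lowest in numbers 2_4 and 2_1 in both, at 2.06 and 5.77 FPKM in liver and 6.17 and 7.69 in muscle. Cry1, whose peak follows at another time of day, ran the other way in liver, at 11.4 and 13.8 FPKM in 2_1 and 2_4 and 1.85 and 1.83 in 3_2 and 6_1, while in muscle it stayed between 5.49 and 8.21. The labels give no time of collection. Cyp4a12a, a fatty acid hydroxylase with near-identical relatives, stood out in 1 liver, at 43.6 FPKM in liver 2_3 and 4.02 to 7.88 in the other 5.

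The 12 calls with the opposite sign at 24 h included genes of stroma and immune cells. Ighm, the heavy chain of IgM, was at 7.52 ± 1.86 FPKM in liver and 48.8 ± 13.3 in muscle at 40 d, a difference of −2.53, but at 122 and 52.6 FPKM at 24 h. Pdgfrb, a receptor of pericytes and fibroblasts, differed by −2.06 at 40 d and 0.10 at 24 h, and Col6a3 by −1.77 and 0.31. Csrp3, a Z-disc protein of slow fibres and heart, was at 22 to 75.5 FPKM in the muscles at 40 d and at 6.58 in the 24 h muscle. Cfp and Atp1b1 also changed sign, and Atp1b1 (−1.35 ± 0.13) lost its call without liver 2_3, 2_4, 3_2 or 6_1 or muscle 2_5, 3_2 or 6_1 (−1.35 to −1.26). Whether these reflect the library, the time or the animal cannot be told apart, since each tissue has 1 library at 24 h.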

How the data were processed

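RNA sequencing of 6 vehicle livers and 6 vehicle muscles at 40 d, and of 1 of each at 24 h, was read from tables of FPKM that the authors deposited, on GRCm38 (mm10) per the submitters' processing notes. The aligner, counter and use of strand were not given in the sources. Livers and muscles at 40 d stood in separately scaled tables, which were joined on 53801 Ensembl identifiers. A further 14 columns of sample values were not used here. With the listed gene lengths, 100% of values were whole reads within 0.01. All 12 libraries were put on 1 scale with median-of-ratios size factors over 14492 genes above 0 in each, which moved liver by 0.106 and muscle by −0.14 on the log2 scale. All levels printed for 40 d are on that scale. Levels at 24 h are as the authors deposited them.

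Genes with at least 1 FPKM in 6 of the 12 libraries were tested on log2(FPKM + 1) with limma 3.58.1 in R 4.3.3 (trend, and treat against a 2-fold difference), with Benjamini-Hochberg adjustment over all of them. Differences are liver minus muscle, and 95% intervals and SEs are from the same fit. The labels number the samples but do not say that they came from separate animals, so p-values measure the spread between these samples. No libraries of a tissue were duplicates: chi-square over degrees of freedom between pairs was 13.29 to 40.01 in liver and 19.84 to 106.63 in muscle. The fit was also run on simulated reads in which few genes differed, the spread was set alike for all genes and the scale was known. That run therefore does not cover the choice of scale between the tissues. Tables and plots used Python 3.11.15, NumPy 2.4.6, pandas 2.3.3 and matplotlib 3.10.9.

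The 26 lists of functions, 16 lists of cell types and 38 isoform pairs were chosen with earlier results of these data known. Genes were named from the 12 largest differences each way, the pairs, the most abundant members of each list and the member most against its direction, the 8 most alike, the 8 most variable per tissue, calls of opposite sign at 24 h, and a set of metabolic genes. Alternatives were other scales, a pseudocount of 0.1, other filters, a replicate block, a test against no difference, limma voom on the recovered reads, and leaving out each library. Some genes are not reported here.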

Additional observations from a re-analysis of the deposited data

Results flagged for a closer look

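Among the 6 libraries of a tissue, 28 of 319 sets of values of named genes had a library far from the others. Chance gives about 1 in 20 for genes chosen without regard to their spread, and some of these genes were named for a large spread or a difference from 24 h, so the count is not to be read against that rate. Muscle 6_1 held 12 of them. It was lowest for the fat synthesis genes Acaca (2.68 FPKM), Acly (10.9), Fasn (25.03), Scd2 (32.4) and G6pdx (6.995), and for Insr (5.29) and the collagen Col6a3 (5.02). It was highest for the mitochondrial genes Acads (71.7), Echs1 (19.97), Bckdk (57.3), Cox4i1 (687) and Ndufs7 (263). Muscle 6_1 also had the lowest fat-cell transcripts, and their part in these values was not tested. Muscle 3_2 was highest for the liver transcripts Ambp (5.97 FPKM), Fabp1 (15.2) and Gc (9.28).

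Among livers, 3_2 was highest for Acaca (22.6 FPKM), Acacb (30.7), Acly (137) and Scd1 (13378) and lowest for Cyp2e1 (1456). Liver 2_1 was highest for Bbox1 (52.3), Gc (3642) and Prkaa1 (4.93), and liver 2_4 for C3 (1255), Gapdh (38.6) and Ppard (3.01). Liver 2_3 was highest for Cyp4a12a (43.6) and liver 6_1 for mt-Co3 (207).

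The liver minus muscle difference of 6 named genes had the opposite sign at 24 h, at 1.19 for Ighm, −0.70 for Cfp, 0.51 for Atp1b1, 0.31 for Col6a3, 0.23 for Csrp3 and 0.10 for Pdgfrb on the log2 scale. With 1 library of each tissue at 24 h, the change between times was not tested.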

How the results depend on the processing

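The comparison gave 2075 genes higher in liver and 1783 genes higher in muscle, and 20 isoform pairs with both forms called. Leaving out each library in turn gave 2044 to 2084, 1761 to 1826 and 20 to 21. The deposited scales gave 1815 and 2116 genes, total reads 1810 and 2071, and TPM 1952 and 2947. A pseudocount of 0.1 gave 2425 and 2195, limma voom on recovered reads 2465 and 2222, no filter 1999 and 1710, and a filter of 5 FPKM, which left 6903 genes to test, 1634 and 1188. Against no difference, in place of 2-fold, 5203 and 4760 genes passed and 31 pairs. The median of lipid droplets and lipid uptake, 0.16, was −0.0872 on the deposited scales, −0.0722 on total reads and −0.22 in TPM, and the median of proteasome genes, 0.34, was −0.0254 in TPM. These scales moved the median of all genes by −0.19, −0.18 and −0.36. Of 194 tested genes named, 156 kept their call, or lack of one, under every alternative run, and 146 of these also kept their sign. In TPM, Cfp lost its call (1.28) and Acacb (−1.32), Irs2 (−1.61) and Atp5b (−1.22) gained one.

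With the label number as a replicate block, the calls were 2088 genes higher in liver and 1803 genes higher in muscle, and Acly (1.55), Esrra (−1.37), Mef2a (−1.18) and mt-Co3 (−1.88) passed. Liver and muscle of the same number correlated at −0.059 to 0.479 in their deviations, over 0.1 for 4 of 6 numbers, and 4 of 6 matched best with their own number, a hint from the data and not the design. Genes with few reads had listed levels that depth limits, and a gene at 0 reads was not detected at this depth.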

Other observations

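The subunits that target protein phosphatase 1 to glycogen also took opposite sides. Ppp1r3b, known as the form of liver, was at 51.9 FPKM in liver and 1.71 in muscle on average, and Ppp1r3c was at 7.58 and 338 FPKM. Mup20, a pheromone-binding urinary protein of a family of near-identical genes, was at 1389 FPKM in liver and 2.67 in muscle, levels that are uncertain for that reason. Ppp1r3c and Mup20 were chosen after their values were seen.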
